A study of Mus musculus with 8 samples.

Results

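The nuclear genes for respiratory complexes II to V, cytochrome c and the ATP synthase were followed in the livers of 8 adult male mice. The genes were taken by their symbol on the array's annotation: Sdha to Sdhd, Cyc1, Cycs, and all symbols that begin with Uqcr, with Cox and a digit from 4 to 8, or with Atp5. This gave 48 genes of the 19938 that had a probe set with a single symbol, each read from its brightest probe set: 4 for complex II, 9 for complex III, 1 for cytochrome c, 16 for complex IV, 17 for complex V, and Cox7a2l, whose product joins complexes into supercomplexes. Cox7c shares its probe sets with a predicted gene and was outside the rule.

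The 4 control mice are labelled wild type, and the other 4 are labelled as a liver knockout of Rictor with floxed alleles and Cre under the albumin promoter, which is active in hepatocytes. All mice went without food for 16 h and were then refed for 3 h before the liver was collected. The labels do not say whether the controls carried a floxed allele or Cre. Each liver was read on its own Affymetrix Mouse Gene 1.0 ST array, and expression is given as the log2 values that RMA produces. All differences below are log2 differences, knockout minus wild type, with n = 4 in each group.

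Complex II (succinate dehydrogenase) passes electrons from the citric acid cycle to ubiquinone, complex III passes them on to cytochrome c, and complex IV (cytochrome c oxidase) passes them to oxygen. The proton gradient built by the chain drives complex V, the ATP synthase. Complexes III, IV and V are mosaics of a few subunits made from mitochondrial DNA and many made from nuclear genes, so their assembly needs both genomes, while complex II is wholly nuclear. Rictor marks mTOR complex 2, a kinase that acts on Akt below the insulin receptor, and the comparison asks how liver transcripts after a meal depend on it.

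The upstream regions of respiratory genes are known for binding sites of NRF-1, of the ETS-family factor GABPA and of YY1. Of the 48 genes, 36 had an entry in the RefSeq promoter table (GRCm38.p6), which runs from 250 bases before each start to 50 after it and holds 39 entries for these genes. The NRF-1 core, GCGCA followed by T and then GCGC, stood on either strand in 10.3% of the 39 entries and in 0.971% of all 32851 promoters. With any base in place of that T the shares were 25.6% and 4.6%, and this looser motif contains the former. For CCGGAAG (the ETS core) they were 33.3% and 8.86%, and for AANATGGC (YY1) 12.8% and 6.05%. Shown here are the 250 bases upstream of the start of 3 genes that lay higher in every knockout array, one for each of complexes III, V and IV, and then of 2 genes whose groups overlapped, so that the letters can be read beside the expression values. Capitals mark these motifs on either strand.
Uqcrh (chr4:116075071-116075320, minus strand): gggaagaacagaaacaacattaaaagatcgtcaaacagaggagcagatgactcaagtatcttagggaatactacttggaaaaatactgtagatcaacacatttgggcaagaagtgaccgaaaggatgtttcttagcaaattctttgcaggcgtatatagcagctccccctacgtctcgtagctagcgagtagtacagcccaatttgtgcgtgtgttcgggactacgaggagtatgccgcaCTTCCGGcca
Atp5l (chr9:44920743-44920992, minus strand): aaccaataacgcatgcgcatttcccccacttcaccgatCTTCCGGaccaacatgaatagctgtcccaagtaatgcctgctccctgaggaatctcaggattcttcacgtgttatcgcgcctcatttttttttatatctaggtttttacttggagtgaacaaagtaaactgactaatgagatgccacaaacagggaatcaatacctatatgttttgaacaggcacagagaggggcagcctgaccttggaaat
Cox7a2 (chr9:79759854-79760103, minus strand): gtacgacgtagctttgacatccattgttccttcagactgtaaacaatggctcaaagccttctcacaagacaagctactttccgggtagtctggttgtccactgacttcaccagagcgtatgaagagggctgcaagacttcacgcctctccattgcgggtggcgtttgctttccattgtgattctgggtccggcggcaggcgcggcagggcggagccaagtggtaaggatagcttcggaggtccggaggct
Cox6a1 (chr5:115348959-115349208, minus strand): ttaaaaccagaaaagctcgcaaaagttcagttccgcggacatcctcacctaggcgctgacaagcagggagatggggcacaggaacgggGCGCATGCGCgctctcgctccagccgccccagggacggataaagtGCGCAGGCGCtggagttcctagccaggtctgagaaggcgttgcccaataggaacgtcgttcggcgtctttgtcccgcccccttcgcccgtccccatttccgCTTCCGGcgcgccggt
Sdha (chr13:74350241-74350490, minus strand): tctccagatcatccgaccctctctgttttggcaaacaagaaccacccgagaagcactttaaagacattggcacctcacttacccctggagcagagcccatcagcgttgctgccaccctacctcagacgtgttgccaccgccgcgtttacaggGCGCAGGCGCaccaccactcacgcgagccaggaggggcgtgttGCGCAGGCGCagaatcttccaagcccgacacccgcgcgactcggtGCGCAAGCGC
In the stretches shown Uqcrh and Atp5l each had 1 ETS core, and Cox7a2 held none of the motifs. Cox6a1 held 2 NRF-1 matches and 1 ETS core, and Sdha held 3 NRF-1 matches. The 13 genes with an ETS core in their table entry included both Uqcrh, which differed by 0.62, and Sdhd, which differed by -0.19. The 10 genes with an NRF-1 match in their table entry included both Sdha, which differed by -0.03, and Atp5o, which differed by 0.30. Cox5a and Cox7a2l, whose groups did not overlap either, held none of the motifs and are not shown. The stretches shown are examples and do not stand for the other genes. These matches describe the sequence and were not tested against the expression values.

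Several facts bear on every value. The Rictor probe set did not differ between the groups (0.05, SE 0.13; limma adjusted p = 0.936), and which exons it covers is not given here, so it does not check the genotype labels and every direction rests on those labels. Markers of hepatocytes were bright on all arrays (7 of 7 measured, mean 13.86 to 13.94 in wild type and 13.92 to 13.94 in knockout). Kupffer cell and macrophage markers (7 of 7 measured) varied between arrays, with a summed linear level from 4880 to 8920 in wild type and from 5750 to 10700 in knockout. Of these markers 6 of 7 had a higher knockout mean, with a median difference of 0.18. Knockout array 4 alone stood high, with a mean deviation from each gene's mean of 0.732. The other knockout arrays lay from -0.278 to 0.129, inside the wild-type range of -0.523 to 0.214. Of the cholangiocyte markers 4 of 5 were measured, 2 of them higher (median -0.21, summed level 982 to 1830 in wild type and 930 to 1480 in knockout), and of the lymphocyte markers 4 of 5, none of them higher (median -0.11, 603 to 741 and 552 to 757). The Kupffer cell, cholangiocyte and lymphocyte lists each had 1 gene with an unadjusted limma p under 0.05. The hepatocyte, endothelial, stellate, red blood cell, muscle and brown fat lists had 0. Over all genes 10.5% reached such a p and 43.1% had a higher knockout mean, so counts in lists this short are not read as changes. The part of these cell types in the results was not tested. In whole liver, fewer cells of a type and less RNA per cell cannot be told apart. On the first principal component (35.8% of the variance) knockout array 1 lay at -13.1, among wild-type arrays 2 to 4 (-14.5 to -12.6) and far from knockout arrays 2 to 4 (17.3 to 19.3), and wild-type array 1 lay between at -1.24, so results are also given without these arrays.

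None of the 48 genes passed the limma test over all probe sets (adjusted p from 0.14 upward; 0 of 19938 genes, 0% called), so nothing below is a called change. The means nonetheless leaned upward. In 34 of the 48 genes the knockout mean was higher, or 70.8%, against 43.1% of all genes, and the median difference was 0.07 against -0.02 over all genes. An unadjusted limma p under 0.05 was reached by 15 higher members and 2 lower members, which is 35.4% of the members, against a background of 10.5% of all genes (3.84% higher and 6.61% lower). The knockout and wild-type values did not overlap in 5 members, all of them higher: Uqcrh, Cox5a, Cox7a2, Atp5l and Cox7a2l. Over all genes 4.42% did not overlap, 1.81% higher and 2.61% lower.

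**Figure D1:**
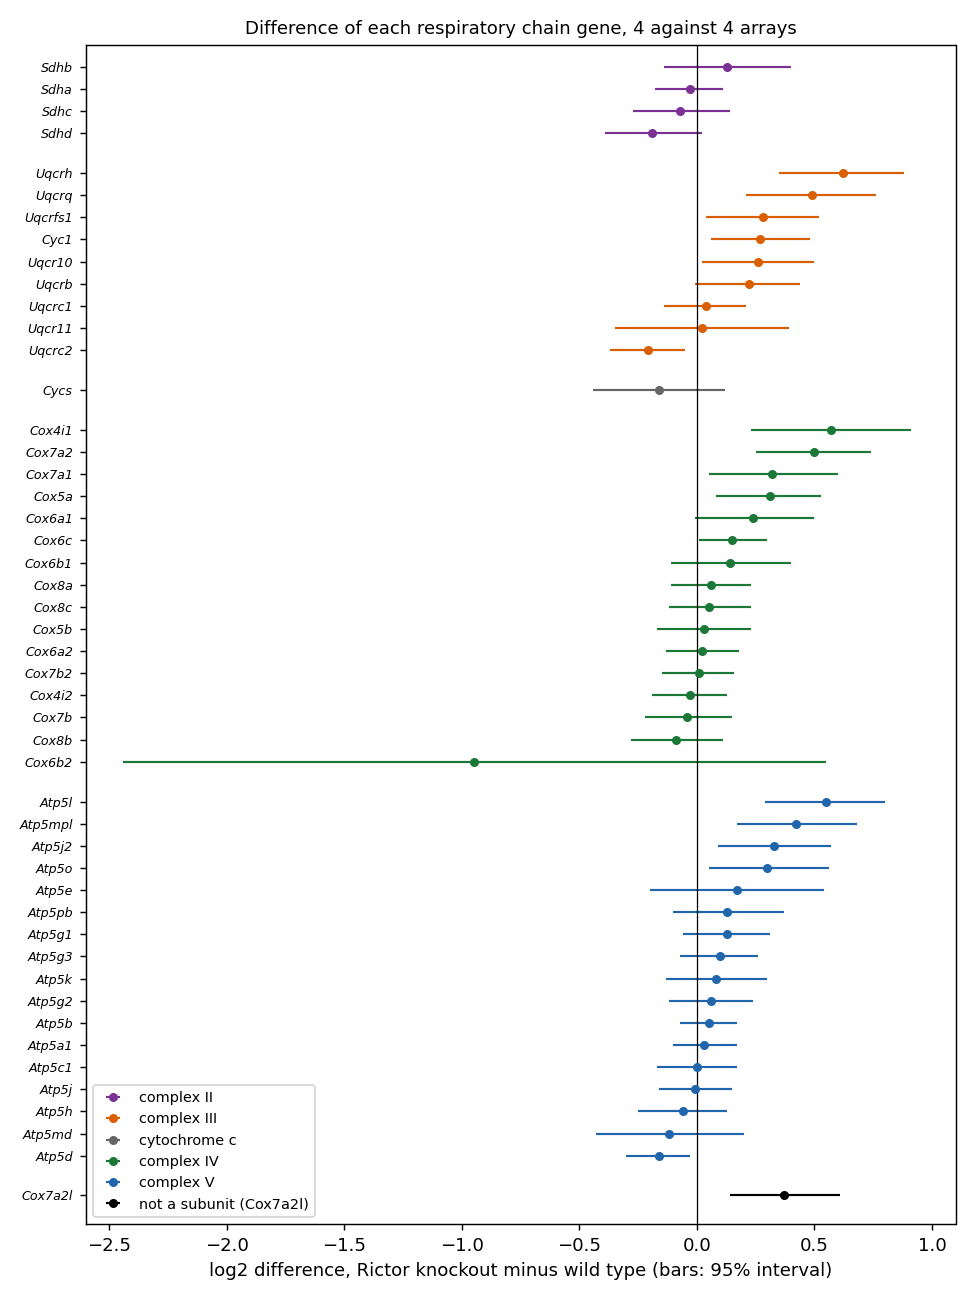
Log2 difference of each of the 48 genes, Rictor knockout minus wild type, with its 95% interval from limma (4 against 4 arrays), sorted within each complex; the colours name the complexes. Uqcrh (0.62), Cox4i1 (0.57) and Atp5l (0.55) lie farthest to the right, Uqcrc2 (-0.21) and Atp5d (-0.16) have intervals wholly below 0, and Cox6b2 has the widest interval.

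Complexes differed in how their genes lay. The median difference was 0.26 in complex III, where 8 of 9 genes had a higher knockout mean, 0.06 in complex IV (12 of 16 higher), 0.08 in complex V (12 of 17 higher) and -0.05 in complex II (1 of 4 higher). Without wild-type array 4 the medians of complexes II to V were -0.06, 0.2, 0.03 and 0.02, and without wild-type array 1 they were -0.05, 0.33, 0.07 and 0.14. Complex IV counts 7 isoforms known from muscle, lung or testis, with a median of 0.01. Its 9 general isoforms, the usual forms in liver, had a median of 0.15 (8 of 9 higher). Their mean deviation from each gene's mean was -0.109 in wild type and 0.109 in knockout. In complex III it was -0.11 and 0.11, so the medians of complexes III and IV depend on which isoforms are counted. These values are descriptions, and the differences between complexes were not tested. Within complexes III and V the largest differences were those of Uqcrh, Uqcrq, Atp5l, Atp5mpl and Atp5j2, which encode small subunits. Other small subunits did not share them, such as Uqcr11 (0.02), Atp5k (0.08) and Atp5md (-0.12). The large core and catalytic subunits Uqcrc1, Uqcrc2, Atp5a1 and Atp5b lay near 0 or below it. Their wild-type means were also brighter, from 12.19 to 13.53, against 9.34 to 11.29 for the genes named first. Atp5k was dimmer still, at 8.62. The part of brightness was not tested.

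Complex II, which has no subunit from mitochondrial DNA, showed no shared shift. Sdha, the flavoprotein that oxidises succinate, read 12.60, 12.68, 12.78 and 12.80 on wild-type arrays 1 to 4 and 12.64, 12.68, 12.68 and 12.73 on knockout arrays 1 to 4, a difference of -0.03 (95% interval -0.18 to 0.11). All 4 knockout values fell inside the wild-type range. Sdhb, the iron-sulfur subunit, read 10.91, 10.85, 10.68 and 10.33 in wild type and 10.70, 10.80, 10.93 and 10.85 in knockout, a difference of 0.13 (-0.14 to 0.40). Wild-type array 4 was low here, and the groups overlapped. The membrane anchors that bind ubiquinone both had lower means. Sdhc read 11.84, 11.74, 11.77 and 11.57 in wild type and 11.81, 11.75, 11.61 and 11.49 in knockout (-0.07; -0.27 to 0.14). Sdhd read 11.76, 11.67, 11.47 and 11.44 in wild type and 11.45, 11.43, 11.46 and 11.25 in knockout (-0.19; -0.39 to 0.02; limma adjusted p = 0.501). In Sdhd 2 knockout arrays lay below all wild-type arrays and the other 2 did not.

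Complex III held the member with the largest upward difference. Uqcrh, the acidic hinge protein that sits beside cytochrome c1, read 11.35, 11.16, 11.03 and 10.93 in wild type and 11.41, 11.88, 11.79 and 11.86 in knockout. Every knockout array lay above every wild-type array, but knockout array 1 only just above wild-type array 1. The difference was 0.62 (SE 0.12), a ratio of 1.54-fold (limma adjusted p = 0.14; exact permutation p = 0.0286, the smallest that 4 arrays against 4 can give). Uqcrq, a small subunit that contacts cytochrome b, read 11.04, 10.77, 10.65 and 10.41 in wild type and 11.02, 11.28, 11.21 and 11.30 in knockout (0.49, SE 0.13; limma adjusted p = 0.203). Knockout arrays 2 to 4 exceeded all controls, and knockout array 1 lay just under wild-type array 1.

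The electron-transferring subunits of complex III, cytochrome c1 and the Rieske protein, had similar differences. Cyc1 read 11.89, 11.74, 11.71 and 11.49 in wild type and 11.97, 12.01, 12.12 and 11.83 in knockout (0.27, SE 0.10; limma adjusted p = 0.332). Uqcrfs1, the Rieske iron-sulfur protein, read 9.50, 9.26, 9.20 and 9.12 in wild type and 9.34, 9.58, 9.70 and 9.59 in knockout (0.28, SE 0.11; limma adjusted p = 0.387). In each gene 3 knockout arrays lay above all wild-type arrays and 1 did not.

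Uqcrc2, core protein 2, lay the other way. It read 12.95, 12.91, 12.80 and 12.82 in wild type and 12.83, 12.60, 12.61 and 12.63 in knockout, so that knockout arrays 2 to 4 lay below all controls and knockout array 1 among them. The difference was -0.21 (SE 0.07; limma adjusted p = 0.333). Its partner Uqcrc1, core protein 1, differed by 0.04 (-0.14 to 0.21). Of the other small subunits Uqcr10 differed by 0.26, Uqcrb by 0.22 and Uqcr11 by 0.02. Uqcr11 ranged from 9.48 to 10.40 in wild type and from 10.03 to 10.12 in knockout, so that most of its spread was in the controls. The 3 probe sets of Uqcrb gave from 0.20 to 0.22.

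Cycs encodes somatic cytochrome c, the soluble carrier between complexes III and IV, and its mean was lower in knockout. Its brightest probe set read 13.08, 13.03, 12.73 and 12.87 in wild type and 12.94, 12.33, 12.94 and 12.85 in knockout (-0.16, SE 0.13; limma adjusted p = 0.698). Knockout array 2 alone lay below the wild-type range. The 3 probe sets gave differences from -0.16 to 0.04, and probes shared with retrocopies of this gene cannot be told apart here.

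**Figure D2:**
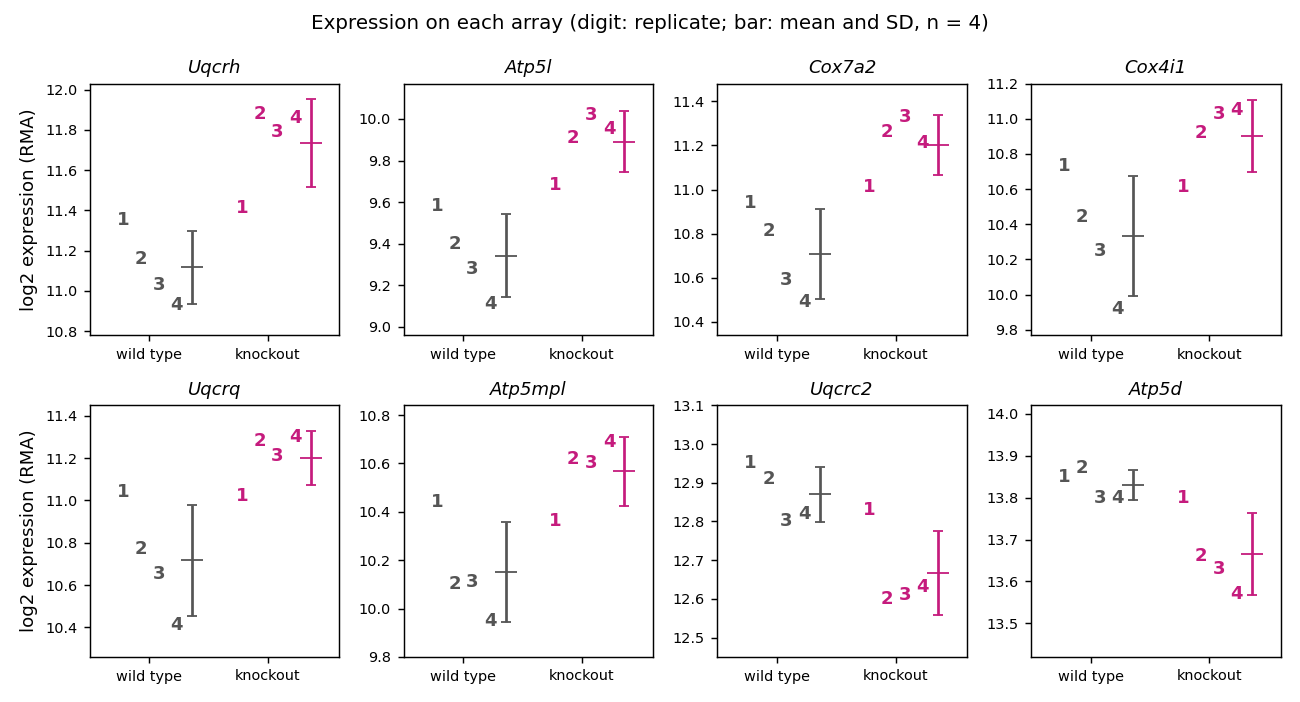
Log2 expression (RMA) of 8 genes on each array; grey digits are the wild-type replicates 1 to 4, pink digits the Rictor knockout replicates, and the bars give the mean and SD of each group (n = 4). In Uqcrh, Atp5l and Cox7a2 all knockout digits lie above all wild-type digits, in Cox4i1, Uqcrq and Atp5mpl 3 do, and in Uqcrc2 and Atp5d 3 knockout digits lie below all wild-type digits.

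In complex IV the general isoforms, which are the usual forms in liver, had higher means in 8 of 9 genes, with a median of 0.15. Cox7a2, the liver form of subunit 7A, read 10.94, 10.81, 10.59 and 10.49 in wild type and 11.01, 11.26, 11.33 and 11.21 in knockout. The groups did not overlap, and the difference was 0.50 (SE 0.11), or 1.41-fold (limma adjusted p = 0.143; exact permutation p = 0.0286). Cox4i1, the general form of the subunit that binds ATP as an allosteric regulator, read 10.73, 10.44, 10.25 and 9.92 in wild type and 10.61, 10.92, 11.03 and 11.05 in knockout. Knockout array 1 lay inside the wild-type range, and the difference was 0.57 (SE 0.16; limma adjusted p = 0.225). Cox5a read 11.01, 10.88, 10.99 and 10.59 in wild type and 11.07, 11.19, 11.28 and 11.18 in knockout (0.31, SE 0.10; limma adjusted p = 0.306), again without overlap.

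Differences in the remaining general subunits of cytochrome c oxidase were smaller. Cox6c read 13.26, 13.20, 13.11 and 13.03 in wild type and 13.20, 13.33, 13.31 and 13.38 in knockout, a difference of 0.15 (SE 0.07; limma adjusted p = 0.438). Cox6a1, the liver form of subunit 6A, read 11.85, 11.75, 11.49 and 11.23 in wild type and 11.87, 11.84, 11.79 and 11.80 in knockout (0.24; -0.01 to 0.50). Its knockout SD was 0.03 and its wild-type SD 0.28, so the 4 knockout livers sat together near the top of a wide control range. Cox6b1 read 11.92, 11.86, 11.68 and 11.35 in wild type and 11.70, 11.87, 11.97 and 11.84 in knockout (0.14; -0.11 to 0.40), and Cox8a read 12.37, 12.31, 12.38 and 12.14 in wild type and 12.43, 12.40, 12.34 and 12.26 in knockout (0.06; -0.11 to 0.23). Cox5b and Cox7b differed by 0.03 and -0.04, and the groups overlapped in all 6 of these genes.

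Isoforms of complex IV that are known from muscle, lung or testis gave a mixed picture. Cox7a1, the muscle form of subunit 7A, read 6.92, 6.93, 6.75 and 6.64 in wild type and 6.86, 7.32, 7.41 and 6.95 in knockout (0.32, SE 0.13; limma adjusted p = 0.37), with 3 knockout arrays above all controls. Cox4i2, the hypoxia-responsive form of subunit 4, read 6.99, 6.95, 7.05 and 6.88 in wild type and 6.88, 6.96, 6.96 and 6.96 in knockout (-0.03). Cox6a2, the muscle form of subunit 6A, read 6.78, 6.68, 6.77 and 6.78 in wild type and 6.84, 6.79, 6.74 and 6.74 in knockout (0.02). Neither of the last pair showed a difference beyond the spread of its arrays, with intervals of -0.19 to 0.13 and -0.13 to 0.18. The muscle form Cox8b differed by -0.09, having read 6.42, 6.37, 6.23 and 6.4 in wild type and 6.22, 6.51, 6.20 and 6.13 in knockout. Cox8c read 6.57, 6.67, 6.71 and 6.65 in wild type and 6.66, 6.89, 6.64 and 6.61 in knockout (0.05), and Cox7b2 differed by 0.01. In Cox8b and Cox8c the groups overlapped. All genes of this paragraph, Cox7a1 included, read near or below the median of all probe sets on an array (6.9 to 7.03). Whether these values lie above background was not measured, which limits what their directions can show.

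Cox6b2, the testis form of subunit 6B, varied far more between mice than any other member. It read 9.97, 10.39, 9.28 and 7.37 in wild type and 7.38, 10.44, 7.94 and 7.47 in knockout. High and low values occurred in both groups, with an SD of 1.34 in wild type and 1.44 in knockout. The difference of -0.95 therefore had a 95% interval from -2.44 to 0.55 (exact permutation p = 0.486), and it ranged from -1.66 to -0.57 with single arrays left out.

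Cox7a2l encodes a relative of subunit 7A that links complexes III and IV and is no regular subunit of the oxidase. It read 9.25, 8.99, 8.85 and 8.79 in wild type and 9.35, 9.27, 9.37 and 9.39 in knockout. The groups did not overlap, though knockout array 2 exceeded wild-type array 1 by little, and the difference was 0.37 (SE 0.11; limma adjusted p = 0.242; exact permutation p = 0.0286). Its second probe set gave 0.36.

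In complex V the small subunits of the membrane sector lay highest, with a median of 0.33 and 4 of 5 higher, while the F1 head had a median of 0.03. Atp5l, subunit g, which helps to hold the synthase in dimers, read 9.58, 9.40, 9.28 and 9.11 in wild type and 9.68, 9.91, 10.02 and 9.95 in knockout. All knockout arrays lay above all controls, and the difference was 0.55 (SE 0.12), or 1.46-fold (limma adjusted p = 0.143; exact permutation p = 0.0286). The gene had 6 probe sets, which gave from 0.55 to 0.61 and may share probes through retrocopies, so they are no separate evidence. Atp5mpl, the 6.8 kDa proteolipid of the membrane sector, read 10.44, 10.10, 10.11 and 9.95 in wild type and 10.36, 10.62, 10.60 and 10.69 in knockout (0.42, SE 0.12; limma adjusted p = 0.225). Atp5j2, subunit f, read 11.55, 11.37, 11.22 and 11.01 in wild type and 11.53, 11.73, 11.53 and 11.66 in knockout (0.33, SE 0.11; limma adjusted p = 0.314). In both of these wild-type array 1 reached into the knockout range. Atp5k, subunit e, differed by 0.08, and Atp5md, which encodes the small protein DAPIT, by -0.12 with probe sets from -0.12 to 0.02.

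The catalytic head of the synthase did not share those differences. Atp5a1 and Atp5b, the alpha and beta subunits that form the catalytic hexamer, differed by 0.03 (-0.10 to 0.17) and 0.05 (-0.07 to 0.17), and Atp5c1, the rotating gamma subunit, by 0.00 (-0.17 to 0.17). Atp5d, the delta subunit of the central stalk, read 13.85, 13.87, 13.80 and 13.80 in wild type and 13.80, 13.66, 13.63 and 13.57 in knockout. Its difference was -0.16 (SE 0.06; limma adjusted p = 0.35), with 3 knockout arrays below all controls and knockout array 1 level with the lowest of them. Atp5e, the epsilon subunit, differed by 0.17 with a wild-type SD of 0.42.

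In the peripheral stalk, which holds the head still, Atp5o (OSCP) read 10.92, 10.67, 10.54 and 10.31 in wild type and 10.88, 10.95, 10.88 and 10.93 in knockout (0.30, SE 0.12; limma adjusted p = 0.379). Wild-type array 1 lay within the knockout range and the other controls below it. Atp5pb, Atp5h and Atp5j, subunits b, d and F6, differed by 0.13, -0.06 and -0.01.

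Atp5g1, Atp5g2 and Atp5g3 are 3 genes for the same mature c subunit, whose ring turns as protons pass. Atp5g1 read 13.21, 13.09, 13.03 and 12.82 in wild type and 13.14, 13.28, 13.16 and 13.09 in knockout (0.13; -0.06 to 0.31). Atp5g2 read 12.59, 12.39, 12.46 and 12.21 in wild type and 12.50, 12.52, 12.44 and 12.43 in knockout (0.06; -0.12 to 0.24). Atp5g3 read 12.69, 12.61, 12.59 and 12.41 in wild type and 12.65, 12.62, 12.77 and 12.65 in knockout (0.10; -0.07 to 0.26). All 3 had slightly higher knockout means, overlapping groups and intervals that include 0.

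**Figure D3:**
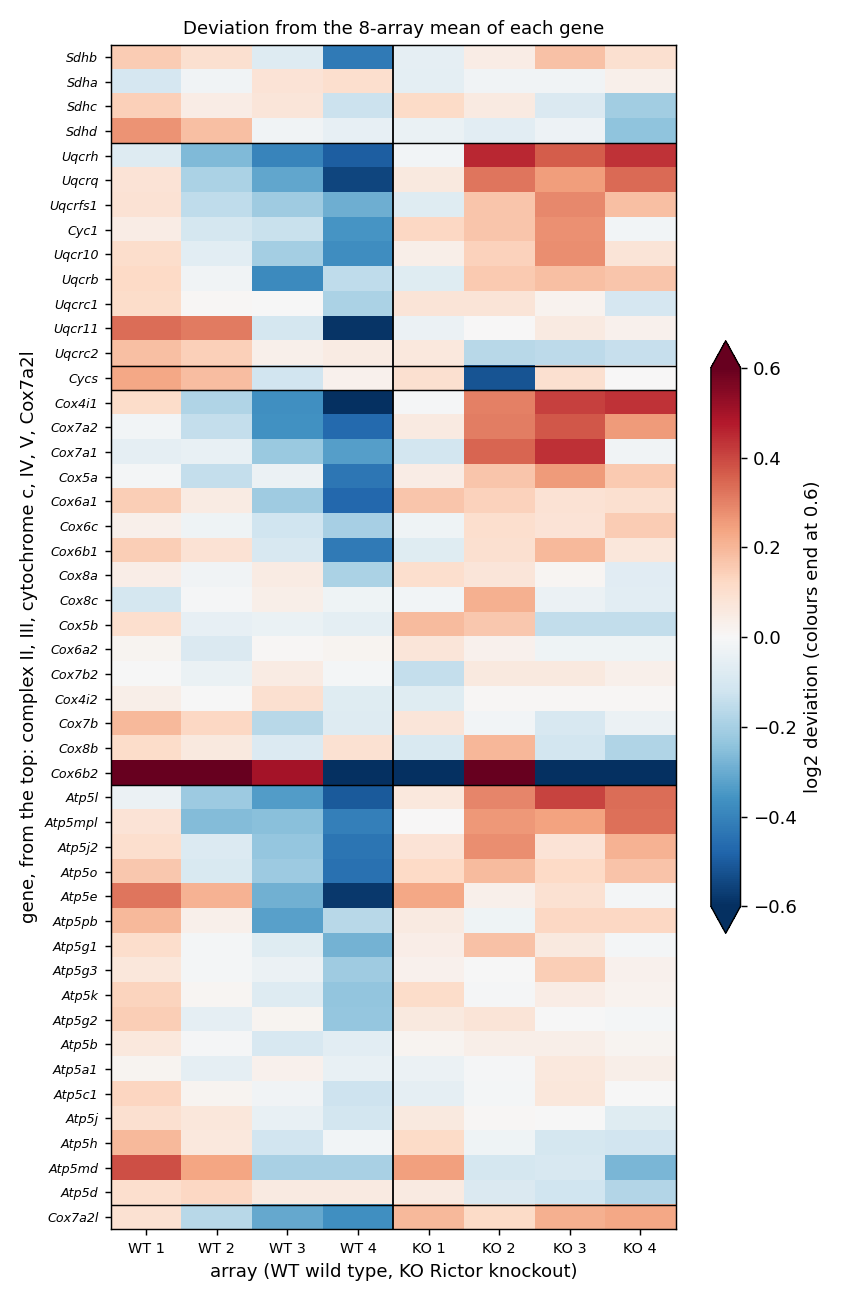
Deviation of each gene on each array from that gene's mean over the 8 arrays, on the log2 scale (red above, blue below; colours end at 0.6), with genes ordered by complex and then by difference. The column of wild-type array 4 is mostly blue and that of wild-type array 1 mostly red, and the left and right blocks contrast most in Uqcrh, Uqcrq, Cox4i1, Cox7a2 and Atp5l.

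Much of the spread in these genes lay among the controls. Wild-type array 1 was the highest control in 39 of the 48 members, or 81.2%, against 26.4% of all genes, and wild-type array 4 was the lowest control in 35, or 72.9%, against 29.4% of all genes. Averaged over the members, the deviation from each gene's mean was 0.125, 0.0235, -0.109 and -0.262 on wild-type arrays 1 to 4 and 0.00774, 0.122, 0.0771 and 0.0161 on knockout arrays 1 to 4. The SD was thus 0.168 among controls and 0.0539 among knockouts, and all 4 knockout values lay inside the range of the controls. Over all genes the same averages lay between -0.0208 and 0.0448. Without wild-type array 4 the median difference of the members was 0.03, and without wild-type array 1 it was 0.13.

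Other gene groups had the same order of the wild-type arrays, falling from array 1 to array 4. For complex I, the entry point for electrons from NADH, 36 genes were taken by symbols that begin with Nduf but not Ndufaf. Some of them, such as Ndufa4, may belong elsewhere. They averaged 0.125, -0.023, -0.149 and -0.245 on wild-type arrays 1 to 4. On the knockout arrays they averaged from 0.0556 to 0.0858, with a median difference of 0.14. At an unadjusted limma p under 0.05 there were 12 higher and 0 lower genes, or 33.3%, against 10.5% of all genes. A symbol rule for cytosolic ribosomal proteins (Rpl or Rps and a digit, Rplp, Rpsa) took 71 genes. Some of these encode other proteins, such as the S6 kinase genes Rps6kb2 and Rps6ka3. The 71 genes averaged 0.0868, -0.1, -0.163 and -0.302 on the wild-type arrays. On the knockout arrays they averaged from 0.0383 to 0.175, with a median difference of 0.19. Of these genes 77.5% had a higher mean, against 43.1% of all genes. At an unadjusted limma p under 0.05 there were 33 higher and 2 lower ones, or 49.3%. Of the 77 mitochondrial ribosomal protein genes 43 had a higher mean, with a median of 0.06. They averaged 0.157, 0.0294, -0.0575 and -0.183 on the wild-type arrays. Their knockout arrays did not sit together, at 0.161, -0.0454, 0.0262 and -0.0883. The upward lean of respiratory complexes II to V is therefore not shown to be particular to them. Kupffer cell and macrophage markers averaged 0.214, 0.107, -0.231 and -0.523 on the wild-type arrays and 0.129, -0.15, -0.278 and 0.732 on the knockout arrays; wild-type arrays 1 and 4 held the same places as in the respiratory genes, and the part of this in the result was not tested.

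**Figure D4:**
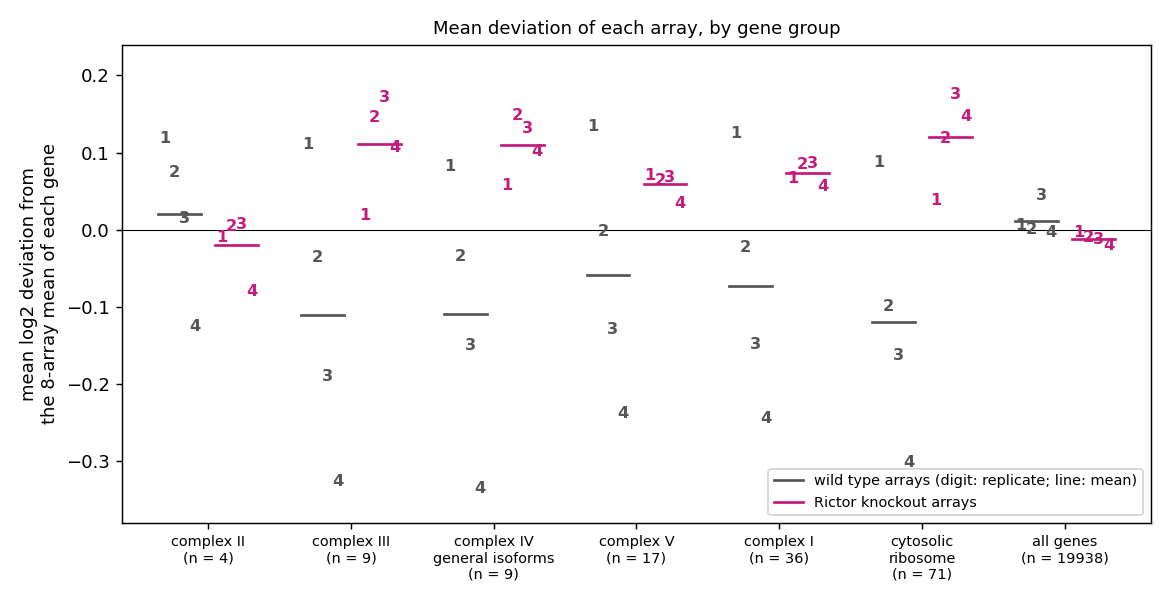
Mean log2 deviation of each array from the 8-array mean of each gene, averaged over the genes of a group (digits: replicates; lines: group means; grey wild type, pink Rictor knockout). The cytosolic ribosome group was taken by symbol and holds some other genes. In complex III the wild-type arrays spread from -0.327 to 0.111 and the knockout arrays from 0.0186 to 0.171, and wild-type array 4 is the lowest point in all groups drawn but that of all genes.

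Some members passed in fits that weighted the arrays or left some out. A fit with limma's array weights, of which knockout array 1 had the lowest (0.467), called 9 members. The same fit called 3.55% of all genes, and the shares below are likewise those of all genes called in the same fit. The 9 members were Uqcrh, Uqcrq, Cox4i1, Cox7a2, Atp5l, Atp5mpl and Cox7a2l as higher, and Uqcrc2 and Atp5d as lower. The backgrounds in that fit are 1.31% of genes higher and 2.23% lower. Leaving out knockout array 1 called 8 members, beside 4.4% of all genes. The first 6 of the members just named were higher and the same 2 lower, beside 1.1% and 3.3% of all genes. Leaving out wild-type array 1 called 4 members, beside 0.296% of all genes. Uqcrh, Uqcrq, Cox7a2 and Atp5l were higher and no member was lower, beside 0.231% and 0.0652% of all genes. Without both arrays numbered 1 the fit called 16 members, beside 7.47% of all genes. Of these members 14 were higher and 2 lower, beside 2.39% and 5.08% of all genes. Uqcrh lay at 0.81 (limma adjusted p = 0.000152) and Cox4i1 at 0.80 (limma adjusted p = 0.00178). Over all alternatives the highest limma adjusted p-values of Uqcrh and Cox4i1 were 0.507 and 0.63. Such weights favour arrays that lie close to their labelled group, and the fit without both arrays numbered 1 was added with their values known, so none of these fits is taken as a further test of a gene.

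The assembly factors of complexes II to V did not lean upward as the subunits did. Of 41 listed factors 37 were measured, 16 with a higher and 21 with a lower mean. The share with a higher mean was 43.2%, against 43.1% of all genes. An unadjusted limma p under 0.05 was reached by 3 higher and 5 lower ones, or 21.6%, against 10.5% of all genes. None passed after adjustment. Cmc1, which acts early in the building of cytochrome c oxidase, read 10.16, 10.10, 9.87 and 10.11 in wild type and 9.91, 9.46, 9.44 and 9.36 in knockout (-0.52, SE 0.13; limma adjusted p = 0.168). Cox17, a copper chaperone for complex IV, read 7.11, 6.87, 6.92 and 6.84 in wild type and 7.13, 7.30, 7.29 and 7.22 in knockout (0.30, SE 0.08; limma adjusted p = 0.227). The groups of Cmc1 overlapped through knockout array 1, and those of Cox17 were parted by a small margin. Atpif1, the inhibitor of ATP synthase hydrolysis, differed by 0.10 (SE 0.15).

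Of the citric acid cycle enzymes 14 of 15 were measured, with 9 higher means and a median of 0.04, and none passed after adjustment. This list also counts Pcx, pyruvate carboxylase, which feeds the cycle but is no enzyme of the cycle itself (0.19, SE 0.08). Suclg1, a subunit of succinyl-CoA synthetase, differed by 0.35 (SE 0.12; limma adjusted p = 0.333), and Idh3a, of isocitrate dehydrogenase, by -0.26 (SE 0.10; limma adjusted p = 0.351). Among regulators of mitochondrial gene expression 18 of 19 were measured, with 8 higher and 10 lower means and a median of 0.00. Tfam, which packages and transcribes mitochondrial DNA, read 8.63, 8.33, 8.12 and 8.20 in wild type and 8.70, 8.61, 9.0 and 8.73 in knockout (0.44, SE 0.12; limma adjusted p = 0.23), with overlap through wild-type array 1. Mterf4 differed by 0.25 (SE 0.10; limma adjusted p = 0.39). Nrf1 and Gabpa, which encode factors whose motifs were searched in the promoters, differed by -0.03 (SE 0.08) and 0.00 (SE 0.11). From the mitochondrial genome only ND3, a complex I subunit, was analysed here, at 0.13 (SE 0.08).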

How the data were processed

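The authors' deposited table holds log2 expression values for 35556 probe sets on 8 Affymetrix Mouse Gene 1.0 ST arrays, 1 per mouse. RMA, Partek and Affymetrix Expression Console are the tools in the submitters' processing notes, with no version or order; that the base is 2 was read from the range of the values. Because RMA brings arrays to 1 distribution, it hides any shift common to most genes and shrinks differences of dim probe sets. No genome build is stated for the probe sets.

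Probe sets with a single gene symbol (21789, for 19938 genes) were fitted with limma 3.58.1 in R 4.3.3 (lmFit, eBayes with a mean-variance trend), knockout minus wild type, two-sided, without covariates. Benjamini-Hochberg adjustment ran over all 21789 p-values, with 0.05 as the threshold. A gene is shown by its brightest probe set. Intervals are 95% moderated intervals. For single genes an exact permutation test, two-sided, was run too; its smallest p is 0.0286. The number of arrays limits the precision. The procedure was tested on simulated data.

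The member genes and lists were chosen with earlier results of these data known. Values are given on every array for complex II, cytochrome c, Cox7a2l and the 5 members of complexes III, IV and V with the smallest p. They are also given for lower members with an unadjusted p under 0.05 and the isoform groups Cox4i, Cox6a, Cox6b, Cox7a, Cox8 and Atp5g. For the assembly factors, citric acid cycle enzymes and regulators the 2 genes with the smallest p are named. The complex I and ribosomal lists, taken by symbol, are given only as groups. Atpif1, Nrf1, Gabpa and ND3 were added after their values were seen. Alternatives were array weights, no trend, a replicate block, a brightness filter, 2 rescalings, averaged probe sets, and single arrays or both arrays numbered 1 left out.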

Additional observations from a re-analysis of the deposited data

Results flagged for a closer look

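In 8 of 96 groups of 4 arrays, 48 genes in each of 2 groups, 1 array stood apart from the other 3 by more than the 95% limit of Dixon's test. Chance gives about 1 in 20 such groups if they are independent. These groups share the same 8 arrays, so whether 8 of 96 is unusual was not tested. Among the knockout arrays, Sdhd was lowest on array 4 at 11.25, with the others from 11.43 to 11.46. Knockout array 1 was the highest of its group for Uqcrc2 at 12.83 (others 12.60 to 12.63), and the lowest for Uqcrb at 12.38 (others 12.61 to 12.63) and for Cox4i2 at 6.88 (others at 6.96). On knockout array 2 Cycs read 12.33 (others 12.85 to 12.94) and Cox8c read 6.89 (others 6.61 to 6.66). In wild type, Cox5b was highest on array 1 at 12.55 (others 12.39 to 12.41), and Cox6a2 was lowest on array 2 at 6.68 (others 6.77 to 6.78).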

How the results depend on the processing

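At equal weights with all arrays 0 genes and 0 members passed (limma, adjusted), with 2084 genes and 17 members at an unadjusted p under 0.05. Array weights gave 707 genes and 9 members, and leaving out both arrays numbered 1, a choice made with their values known, gave 1489 genes and 16 members. With single arrays left out, genes called ranged from 0 to 877 and members called from 0 to 8. Calls came without knockout array 1 (877 genes, 8 members) and without wild-type array 1 (59 genes, 4 members), and any other single array left out gave 0 and 0, as did the remaining 6 alternatives. With single arrays left out, the median difference ranged from -0.07 to -0.03 in complex II, from 0.2 to 0.33 in complex III, from 0.03 to 0.09 in complex IV and from 0.02 to 0.14 in complex V.

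The replicate block gave 0 genes called. The deviations of same-numbered arrays correlated at -0.093, -0.125, -0.04 and 0.0738, and 2 of 8 arrays correlated best with their own number, and the numbers were therefore not taken to pair the arrays. Centring each array on its median turned the sign of Atp5c1 and Atp5j, both near 0. The brightness filter removed Cox7b2. Signal over background limits what the dim isoforms can show, and it was not measured.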
